A study of Mus musculus with 5 samples.

Results

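The 10 type I interferon-stimulated genes Ifit1, Ifit2, Ifit3, Isg15, Oasl2, Mx1, Rsad2, Usp18, Irf7 and Ifi44 were followed in bulk RNA sequencing of tumor-bearing mouse brain. They were taken as a fixed list of mouse symbols and matched to the Ensembl identifiers of the count tables, where all 10 were found among 55573 genes. Each of the 5 libraries came from the right hemisphere of one C57BL/6 female that had received GL261 cells, a mouse glioma line of the same strain carrying a luciferase/mKate2 vector, in the right caudate nucleus-putamen at 7 to 8 weeks of age. The vehicle group (n = 3) received dilution buffer and the UMBO group (n = 2) received ultrasound-mediated blood-brain barrier opening, in which pulsed ultrasound is applied to the head after an injection of microbubbles into the blood. A further UMBO mouse that the study describes was not analysed here, so every UMBO value rests on 2 libraries. Whether UMBO mice also received the buffer, or vehicle mice the microbubbles, is not given in the sources used here, so ultrasound, microbubbles and buffer cannot be told apart. Both groups were treated on days 21 and 24 and were sacrificed 24 h after the last session. All 5 mice carried a tumor, and no tumor-free brain was among the samples. The comparison asks whether UMBO alone, with no antibody, was accompanied by a different level of these genes in the hemisphere.

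Type I interferons are secreted cytokines that bind the receptor chains IFNAR1 and IFNAR2. The kinases JAK1 and TYK2 then activate transcription factors, STAT2 among them, which join IRF9 and bind a short DNA element, the interferon-stimulated response element, upstream of many genes. In the brain the response is known from neurons and astrocytes, and it is strong in microglia and in macrophages that enter from the blood.

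Promoter sequences were searched for the exact core letters of that element close to the start of these genes. RefSeq promoters on GRCm38.p6, each running from 250 bases before to 50 bases after a transcription start, were at hand for 8 of the 10 genes, Mx1 and Usp18 being the others. The core letters of the element, GAAA followed by any 2 bases and by GAAA again, searched on both strands (TTTC, 2 bases and TTTC when read on the other strand), were found in 4 of the 8, namely Ifit1, Ifit3, Isg15 and Rsad2. Counted by gene in the same way, 3.99% of all 27025 genes with such a promoter held these letters. Of all 32851 promoters of this length 3.44% did. The 4 matching stretches are printed 5′ to 3′ on the strand of the gene, with the matched letters in capitals, and that of Ifit2, which had no match, is given for contrast. The stretch of Ifit1 is kept short because the wider window runs into an exon of Ifit1bl2. Positions are counted from the transcription start, the base before it being -1.
Ifit1 (chr19:34640785-34640813, forward strand, positions -104 to -76): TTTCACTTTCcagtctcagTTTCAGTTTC
Ifit3 (chr19:34583369-34583478, forward strand, positions -160 to -51): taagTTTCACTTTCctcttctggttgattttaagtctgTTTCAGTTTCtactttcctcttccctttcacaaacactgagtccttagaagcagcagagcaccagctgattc
Isg15 (chr4:156200869-156200978, reverse strand, positions -160 to -51): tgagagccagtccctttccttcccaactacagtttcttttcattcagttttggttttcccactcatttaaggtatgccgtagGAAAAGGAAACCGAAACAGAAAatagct
Rsad2 (chr12:26456503-26456612, reverse strand, positions -160 to -51): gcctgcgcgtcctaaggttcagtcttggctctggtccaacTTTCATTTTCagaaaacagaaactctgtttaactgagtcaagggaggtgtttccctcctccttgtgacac
Ifit2 (chr19:34550534-34550643, forward strand, positions -160 to -51): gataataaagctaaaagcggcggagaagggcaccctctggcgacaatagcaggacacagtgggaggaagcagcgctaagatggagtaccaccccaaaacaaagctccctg
Ifit1 and Ifit3 each held 2 matches, with the same letters, TTTCACTTTC and TTTCAGTTTC, in the same order. Isg15 held 3 matches that overlap one another within 22 bases, and Rsad2 held 1. The letters were absent from the promoters of Ifit2 (2 starts), Oasl2, Irf7 and Ifi44. Other lists held the letters at a like or higher share, with 18 of 37 further type I interferon-stimulated genes, 8 of 14 interferon-gamma-weighted genes and 11 of 17 type I interferon genes, so they are neither shared by all 10 nor particular to them. A match is a description of the DNA and shows no binding. The absence of these exact letters from this stretch does not show that a gene lacks the element.

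The libraries held between 59736771 and 86164159 counted reads, and the lowest count of any of the 10 genes in any library was 118, so counting error was small against the spread between mice. No pair of libraries agreed within sampling noise (chi-square per gene between 52.2 and 650.5, where noise alone gives about 1). UMBO replicate 2 stood apart from the other libraries: its chi-square per gene against each of them was at least 270.4, against at most 116.0 among the other 4. The differences between the groups are therefore also given without it. Markers of neurons, astrocytes and oligodendrocytes were all detected in each library, as the tissue label implies. Levels are given as CPM, that is, counts brought to a common library total after edgeR's TMM normalization. Because each library is a whole hemisphere, more cells of a responding type and more RNA per cell cannot be told apart.

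All 10 genes had a higher mean with UMBO than with vehicle, by 1.60-fold (Ifit2) to 4.14-fold (Isg15), but none passed the test. In every one of them UMBO replicate 2 was the highest library and vehicle replicate 2 lay above UMBO replicate 1, so the groups overlapped throughout. In 9 of the 10 the libraries followed one order, from vehicle replicate 1 through vehicle replicate 3, UMBO replicate 1 and vehicle replicate 2 to UMBO replicate 2. Rsad2 was the exception, with vehicle replicates 1 and 3 exchanged. Over all 23592 genes tested 8.26% followed this order, 40.4% had UMBO replicate 2 highest and 50.1% had vehicle replicate 2 above UMBO replicate 1.

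**Figure D1:**
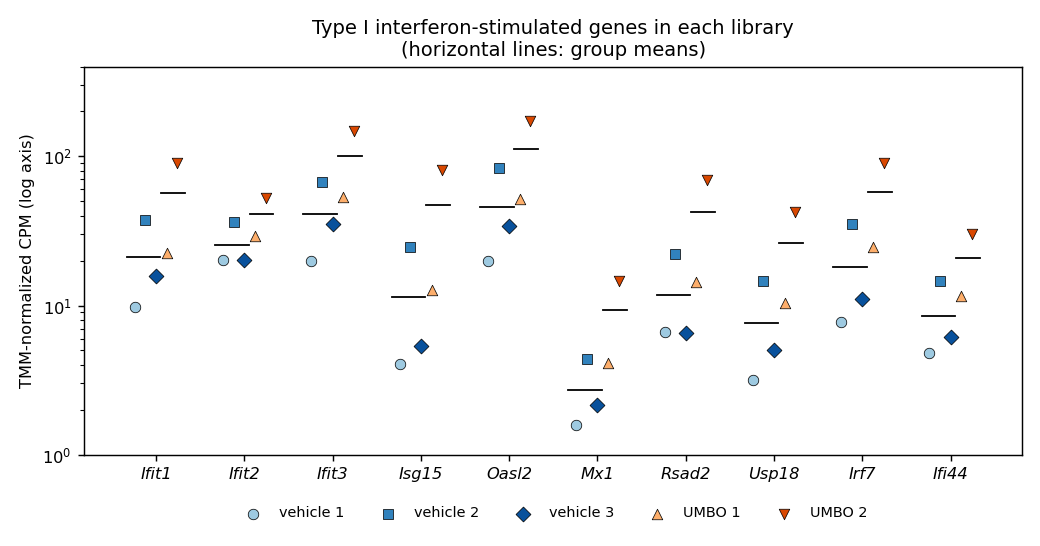
TMM-normalized CPM (log axis) of the 10 genes in each of the 5 libraries, 1 point per library, with a horizontal line at the mean of each group (vehicle, n = 3; UMBO, n = 2). UMBO replicate 2 is the highest point and vehicle replicate 2 the second highest in each of the 10 genes.

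The IFIT proteins bind RNA that lacks the marks of the cell's own messenger RNA and hold back its translation. Their genes lie together on chromosome 19 of GRCm38, on the forward strand. Ifit1 (34640871 to 34650009) was at 9.83, 37.5 and 15.9 CPM in vehicle replicates 1 to 3 and at 22.4 and 90.8 CPM in UMBO replicates 1 and 2. Ifit3 (34583531 to 34588731) was at 19.9, 67.3 and 35.2 CPM with vehicle and at 53.3 and 147 CPM with UMBO. Ifit2 (34550694 to 34576419) was at 20.2, 36.0 and 20.2 CPM with vehicle and at 29.0 and 52.7 CPM with UMBO. Ifit2 varied least of the 10 genes, with 2.61-fold between vehicle replicate 1 and UMBO replicate 2 against 9.24-fold for Ifit1 and 7.37-fold for Ifit3. Of the 50-base stretches of the Ifit3 transcripts, 51.2% also occur in its neighbor Ifit3b, so reads may be split between them and the level of Ifit3 is uncertain. The share was 7.13% for Ifit1, 3.96% for Isg15, 3.91% for Mx1 and at most 0.14% for the others. Ifit3b, named for this reason, was at 9.35, 26.3 and 17.4 CPM with vehicle and at 22.1 and 44.0 CPM with UMBO, the same order of libraries.

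Isg15 encodes a ubiquitin-like protein that is joined to other proteins, and Usp18 encodes the protease that removes it and also restrains the receptor. Isg15 (chromosome 4, 156199424 to 156200818, reverse strand) was at 4.03, 24.7 and 5.32 CPM with vehicle and at 12.8 and 81.2 CPM with UMBO. It spanned the widest range of the 10 genes, 20.2-fold from vehicle replicate 1 to UMBO replicate 2. Usp18 (chromosome 6, 121245906 to 121270917, forward strand) was at 3.17, 14.6 and 5.06 CPM with vehicle and at 10.4 and 42.1 CPM with UMBO, a range of 13.3-fold. Part of its exons, 124 bases, overlaps Gm44148 on the opposite strand. Both genes thus differed more between vehicle mice, by up to 6.14-fold for Isg15 and 4.59-fold for Usp18, than between the group means.

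Oasl2, Mx1 and Rsad2 encode antiviral effectors. Oasl2 (chromosome 5, 114896936 to 114912234, forward strand), of the oligoadenylate synthetase family, was at 20.0, 83.5 and 34.3 CPM with vehicle and at 52.0 and 172 CPM with UMBO. Mx1 (chromosome 16, 97447035 to 97462907, reverse strand) encodes a GTPase that blocks influenza virus, although the C57BL/6 allele carries a deletion and makes no working protein. It was at 1.58, 4.41 and 2.16 CPM with vehicle and at 4.13 and 14.5 CPM with UMBO. Here UMBO replicate 1 came closest to vehicle replicate 2, at 0.937 of its level. Rsad2 (chromosome 12, 26442746 to 26456452, reverse strand), which encodes the antiviral enzyme viperin, was at 6.63, 22.2 and 6.51 CPM with vehicle and at 14.4 and 69.8 CPM with UMBO. For Rsad2 vehicle replicates 1 and 3 were nearly equal, and for Oasl2 they differed, at 20.0 and 34.3 CPM.

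Irf7 (chromosome 7, 141262706 to 141266481, reverse strand) encodes the transcription factor that switches on most interferon-alpha genes and so amplifies the response. It was at 7.73, 35.3 and 11.1 CPM with vehicle and at 24.7 and 90.8 CPM with UMBO. Its exons share 45 bases with Phrf1 on the opposite strand. Ifi44 (chromosome 3, 151730922 to 151749960, reverse strand) was at 4.83, 14.6 and 6.11 CPM with vehicle and at 11.6 and 30.0 CPM with UMBO. With 6.21-fold from vehicle replicate 1 to UMBO replicate 2 it stood next to Ifit2 at the narrow end, while Irf7 spanned 11.7-fold.

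To compare levels between genes, CPM was divided by the length of the exons of protein-coding transcripts (RPKM). Averaged over the 5 libraries Ifit3 was highest at 37.0 ± 28.3 RPKM (SD, n = 5), followed by Isg15 at 33.9 ± 42.5, Oasl2 at 22.4 ± 18.8, Irf7 at 14.0 ± 13.9 and Ifit1 at 13.3 ± 12.3. Ifit2 at 8.05 ± 3.44, Usp18 at 7.21 ± 7.56, Rsad2 at 6.33 ± 7.00, Ifi44 at 4.62 ± 3.46 and Mx1 at 1.58 ± 1.55 RPKM came after them. All genes were measured in the same libraries, so these SDs do not show whether neighbors differ. Of the neighbors in this order, only Oasl2 against Irf7 and Ifi44 against Mx1 kept their order in all 5 libraries. Within single libraries the order was steadier at its ends: Mx1 was the lowest in all 5, and Ifit3 was the highest in 4. In UMBO replicate 2 Isg15 took the first place, at 107 RPKM against 84.2 for Ifit3, whereas in vehicle replicate 1 it stood at 5.32 RPKM against 11.4 for Ifit3 and 6.20 for Oasl2. Ifit2 moved the other way, from the 4th place in vehicle replicate 1 to the 8th in UMBO replicate 2.

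**Figure D2:**
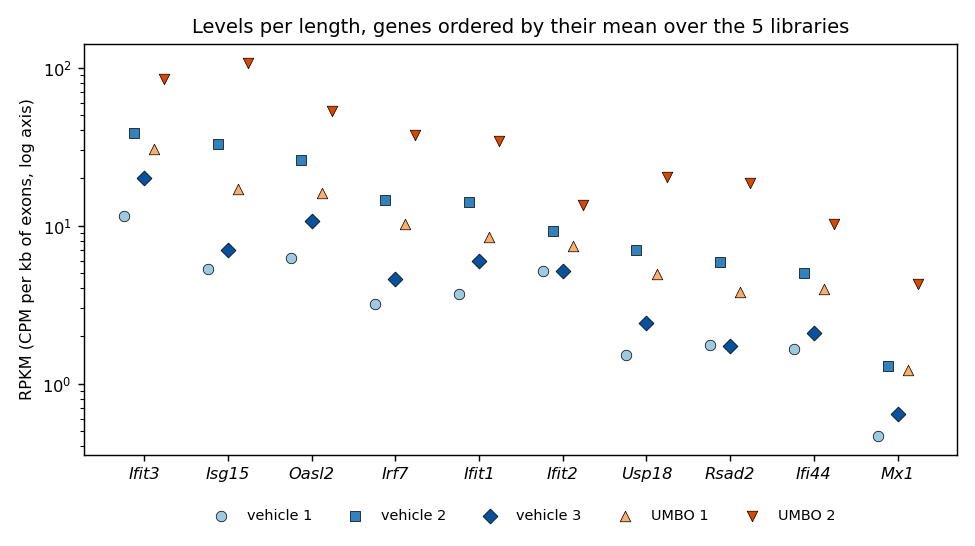
RPKM (CPM per kb of exons, log axis) of the 10 genes in each library, 1 point per library, ordered by the mean over the 5 libraries. Mx1 is the lowest gene in all 5 libraries, and Isg15 passes Ifit3 in UMBO replicate 2 alone.

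The difference between the groups was tested with edgeR's quasi-likelihood test over 23592 genes. The log2 fold change, UMBO minus vehicle, had a median of 1.55 over the 10 genes, against 0.01 over all genes tested. It was 2.05 for Isg15 (standard error 1.02), 1.84 for Rsad2 (0.805), 1.79 for Usp18 (0.801), 1.78 for Mx1 (0.650) and 1.68 for Irf7 (0.787). For Ifit1 it was 1.43 (standard error 0.736), for Ifit3 1.30 (0.604), for Oasl2 1.29 (0.713), for Ifi44 1.29 (0.596) and for Ifit2 0.68 (0.371). Beside these differences the spread was wide: Isg15 averaged 11.4 ± 11.6 CPM (SD, n = 3) with vehicle and 47.0 ± 48.4 CPM (SD, n = 2) with UMBO, and Ifit2 averaged 25.5 ± 9.16 CPM (SD, n = 3) and 40.9 ± 16.7 CPM (SD, n = 2). The adjusted p in edgeR's quasi-likelihood test was 0.497 for each of the 10, so 0 of 10 passed, as did 0% of all genes. At an unadjusted p under 0.05 edgeR gave 1 of the 10, Mx1, against a background of 7.37% of all genes tested, 5.3% higher and 2.06% lower. The DESeq2 Wald test also gave 0 of 10 at its adjusted threshold, where 0.182% of genes passed, and 8 of 10 at an unadjusted p under 0.05, where 11.2% of genes did. In none of the 10 did both UMBO libraries exceed all 3 vehicle libraries, against 11.5% of all genes. In 8 of the 10 the fold between the highest and the lowest vehicle library was larger than the fold between the groups, and in none did the difference between the group means exceed the larger SD.

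Which libraries were included decided the size of the difference. Without UMBO replicate 2 the 10 genes had a median log2 fold change of only 0.34, ranging from 0.09 (Ifit1) to 0.61 (Mx1), and none of the 10 had an unadjusted p under 0.05 in edgeR, where 1.86% of all genes did. Without vehicle replicate 2 the median was 2.27, all 10 genes had an unadjusted p under 0.05 (11.6% of all genes did), and both UMBO libraries lay above both remaining vehicle libraries in all 10 (30.8% of all genes). Without UMBO replicate 1 the median was 2.19 and all 10 had an unadjusted p under 0.05, where 41% of all genes had one. In that fit Mx1, Rsad2 and Usp18 passed the adjusted threshold in edgeR (adjusted p of 0.0390, 0.0407 and 0.0481), as did 4543 genes in all, or 18.3%, and the lone UMBO library was assumed to vary like the vehicle libraries. Without vehicle replicate 1 or 3 the medians were 1.20 and 1.34 and 0 of the 10 had an unadjusted p under 0.05, where 1.28% and 1.88% of all genes did. The direction was the same for all 10 genes in each of these fits.

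**Figure D3:**
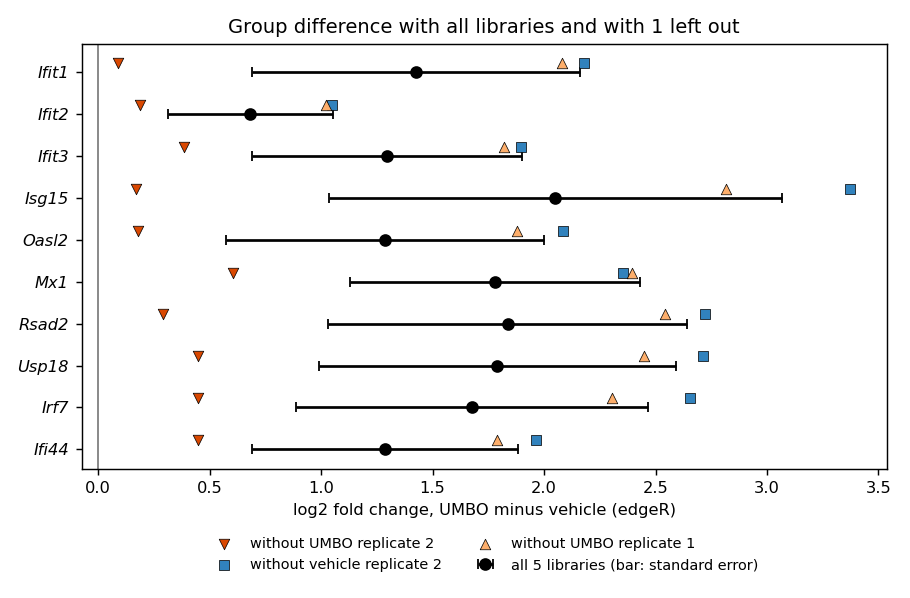
Log2 fold change, UMBO minus vehicle, of the 10 genes from edgeR with all 5 libraries (black points, bars are the standard error) and with UMBO replicate 2, vehicle replicate 2 or UMBO replicate 1 left out (colored points). Without UMBO replicate 2 the values lie between 0.09 and 0.61, and without vehicle replicate 2 between 1.05 and 3.37.

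The rest of the pathway was described from lists by role. Messenger RNA of the ligands was at the limit of detection. All 18 type I interferon genes together held 3, 6 and 6 reads in the vehicle libraries and 5 and 14 reads in the UMBO libraries, and 10 of them had no read at all. Of Ifnb1, the interferon-beta gene, there were 2, 2 and 0 reads with vehicle and 1 and 3 with UMBO, in libraries where 3 reads come to between 0.0348 and 0.0502 CPM. Reads of near-identical interferon-alpha copies may have been lost in counting. The type III interferon genes Ifnl2 and Ifnl3 had no read. Ifng, the type II interferon made by T cells and NK cells, was low, at 0.0802, 0.445 and 0.272 CPM with vehicle and 0.187 and 0.641 CPM with UMBO, with UMBO replicate 1 below 2 of the 3 vehicle libraries.

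The receptors spanned a narrower range than the 10 genes. Over the 6 receptor genes the median log2 CPM relative to the vehicle mean ran from -0.25 in vehicle replicate 1 to 0.62 in UMBO replicate 2, against -0.87 to 2.44 for the 10 genes. Ifnar1, the signaling chain for type I interferon, was at 43.5, 39.5 and 45.1 CPM with vehicle and at 44.4 and 38.9 CPM with UMBO. Ifnar2, the high-affinity chain, was at 11.0, 16.8 and 12.8 CPM with vehicle and at 16.6 and 24.5 CPM with UMBO. For 3 of the 6 receptor genes both UMBO libraries exceeded all 3 vehicle libraries, where 11.5% of all genes did. Among them were Ifngr1, a chain of the interferon-gamma receptor, with a log2 fold change of 0.65 (standard error 0.258), and Il10rb, shared by the type III interferon and interleukin receptors, with 1.02 (0.363). Neither passed in edgeR (adjusted p of 0.497 each). Leaving out UMBO replicate 2 gave a median log2 fold change of 0.29 over the 6, against 0.46 with all libraries.

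Of the 6 signal transducers Stat2 and Irf9, which encode factors that bind the response element, followed the same order of libraries as the 10 genes. Stat2 was at 42.5, 80.4 and 49.5 CPM with vehicle and at 58.3 and 137 CPM with UMBO, and Irf9 at 17.2, 36.7 and 25.9 CPM with vehicle and at 29.0 and 59.2 CPM with UMBO. Both are themselves interferon-stimulated genes. Jak1, the kinase on the receptor, ran against them, at 195, 134 and 163 CPM with vehicle and at 161 and 91.1 CPM with UMBO. Of the 6, 0 passed in edgeR at the adjusted threshold and 0 at an unadjusted p under 0.05. The median of the 6 transducers was 0.48 with all libraries and -0.0002 without UMBO replicate 2. The log2 fold change was 0.77 (standard error 0.434) for Stat2 and 0.73 (0.413) for Irf9.

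Among the 14 sensors and factors that induce interferon genes, 13 had a log2 fold change above 0, where 50.9% of all genes did. In edgeR 2 of the 14 had an unadjusted p under 0.05, where 7.37% of all genes did, with 0 at the adjusted threshold. Tlr7, the endosomal sensor of single-stranded RNA, was at 3.76, 5.28 and 5.03 CPM with vehicle and at 8.65 and 10.7 CPM with UMBO. For Tlr7 the log2 fold change came to 1.04 (standard error 0.263). Both UMBO libraries exceeded all 3 vehicle libraries for 5 of the 14, namely Irf3, Mavs, Tlr3, Tlr7 and Ticam1, where 11.5% of all genes did. Without UMBO replicate 2, 13 of the 14 still had higher means, with a median of 0.33, against -0.01 over all genes in that fit. For Cgas, the sensor of cytosolic DNA, the difference on the log2 scale was 1.36 (standard error 0.524), and for Irf5, a factor acting downstream of Toll-like receptors, it was 1.34 (0.550). The adjusted p was 0.497 for Tlr7, Cgas and Irf5 in edgeR.

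The 4 genes for enzymes that attach ISG15 to proteins all had higher means with UMBO, where 50.9% of all genes had a log2 fold change above 0. Of the 4, Trim25 alone had an unadjusted p under 0.05 in edgeR, where 7.37% of all genes did (0 of the 4 at the adjusted threshold). Ube2l6, the conjugating enzyme, was at 8.56, 34.9 and 9.56 CPM with vehicle and at 18.5 and 89.0 CPM with UMBO, in the library order of Isg15 itself. The log2 fold change was 1.25 (standard error 0.482) for Trim25, a ligase that also acts in RNA sensing, and 0.96 (0.496) for Herc6, the main ISG15 ligase of the mouse. Of the feedback inhibitors 5 of 6 were tested. Trex1 was listed at 0 in every library, and all 1147 bases of its exons lie within exons of Atrip on the same strand. Socs1, which blocks the receptor's kinases, was at 1.70, 9.61 and 1.75 CPM with vehicle and at 3.60 and 27.1 CPM with UMBO. Socs3 was at 4.73, 15.7 and 4.84 CPM with vehicle and at 8.74 and 43.7 CPM with UMBO. Ptpn6, the phosphatase SHP-1 of blood cells, was the single gene of this list with an unadjusted p under 0.05 in edgeR (0 at the adjusted threshold). Among all genes 7.37% had such a p. The log2 fold change of Ptpn6 was 1.57 with a standard error of 0.594. When UMBO replicate 2 was left out, the median was 0.04 for the 4 ISG15 enzymes, against 1.10 with all libraries, and -0.07 for the 5 feedback inhibitors, against 1.57.

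Of 49 further type I interferon-stimulated genes 48 were tested. Means were higher with UMBO for 46 of them, where 50.9% of all genes had a log2 fold change above 0. Their median log2 fold change was 1.40, beside 1.55 for the 10 genes and 0.01 for all genes. In edgeR 8 of the 48 had an unadjusted p under 0.05, all higher (5.3% of all genes tested were higher at this threshold), and 0 of 48 passed the adjusted one. The library order of the 10 genes was found in 39 of the 48. The number with higher means was 41 of 48 without UMBO replicate 2, and the median was 0.22, against -0.01 over all genes in that fit. In 2 of the 48 both UMBO libraries exceeded all 3 vehicle libraries, a smaller share than the 11.5% of all genes. These were Oas2, a sensor of double-stranded RNA, at 1.99, 6.93 and 2.82 CPM with vehicle and 7.12 and 18.1 CPM with UMBO, and Ifitm1, a membrane protein that hinders virus entry, at 1.11, 4.39 and 2.79 CPM with vehicle and 4.75 and 19.3 CPM with UMBO. The log2 fold change of Slfn5 was 1.32 (standard error 0.480). The 2 genes with lower means were Adar, the RNA editing enzyme, with a log2 fold change of -0.46 and Ifit1bl1 with -0.12, the latter of which turned to 0.002 when counts were scaled by library size only.

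Of the genes listed as interferon-gamma-weighted 21 were tested, and which interferon acts on them in this tissue was not measured. In edgeR 0 of the 21 passed with or without adjustment. Their median log2 difference was 1.14. Means were higher with UMBO for 20 of the 21, where 50.9% of all genes had a log2 fold change above 0. The exception was Ido1, with -0.48 (0.06 without UMBO replicate 1). Without UMBO replicate 2 the mean was higher with UMBO for 2 of the 21, with a median of -0.32, beside 10 of 10 and 0.34 for the type I genes. The median over all genes was -0.01 in that fit. These values rest on UMBO replicate 1 alone, and the difference between the lists was not tested. In that fit 1 of the 21, Ido1, had an unadjusted p under 0.05 in edgeR, with a log2 fold change of -1.39, where 1.86% of all genes had such a p. Vehicle replicate 2 lay above UMBO replicate 1 in all 21, where 50.1% of all genes had it so. Set against the mean of the vehicle libraries, their median log2 CPM was 0.05 in UMBO replicate 1, against 0.59 for the 10 type I genes, and 1.26 in vehicle replicate 2, against 1.09. The log2 fold change was 1.50 (standard error 0.637) for Irf8, a factor of the myeloid lineage, and 1.16 (0.661) and 1.39 (0.819) for the GTPase genes Gbp7 and Irgm1. Of the genes named from these lists, Ifng, Ifnar2, Il10rb, Irf9, Irf5, Irf3, Tlr3, Jak1 and Herc6 share exonic bases with another gene. So do Ptpn6, Slfn5, Adar, Gbp7, Trex1 and Ms4a4c, and the counts of all these genes are uncertain.

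**Figure D4:**
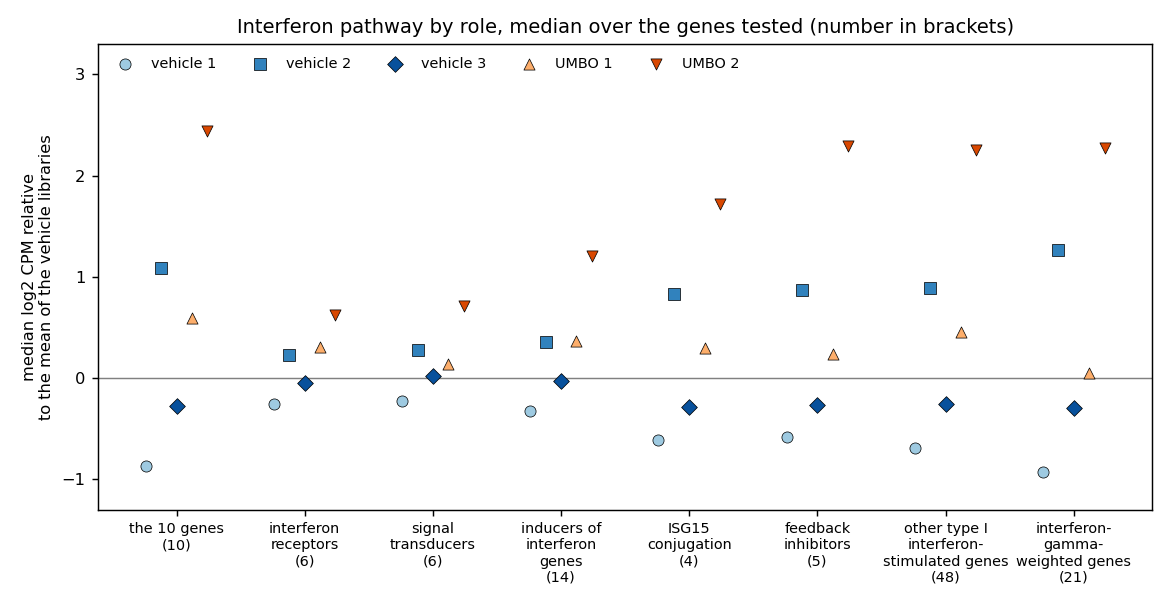
Median log2 CPM of each list relative to the mean of the 3 vehicle libraries (y axis), 1 point per library, for the 10 genes and 7 lists of the interferon pathway, with the number of genes tested in brackets. The medians of receptors reach 0.62 and those of signal transducers 0.71 in UMBO replicate 2, where the 10 genes reach 2.44.

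The genes whose pattern over the 5 libraries was closest to the median of the 10 were found by the root mean square difference of log2 CPM centered on each gene's mean. The 8 closest were Ptpn18, AC154187.1, Ifi213, Aif1, Apobec3, Gm14005, Tnfaip2 and Gm9354, at 0.048 to 0.089 log2 units, where the median gene tested was at 1.14. Aif1, which encodes the microglia and macrophage protein Iba1, was at 6.08, 21.2 and 9.07 CPM with vehicle and at 16.8 and 60.7 CPM with UMBO. Apobec3, an antiviral cytidine deaminase, was at 6.81, 24.3 and 10.5 CPM with vehicle and at 16.5 and 61.4 CPM with UMBO. Ifi213, a member of the interferon-inducible Ifi200 family, was at 1.46, 5.18 and 2.00 CPM with vehicle and at 3.71 and 12.4 CPM with UMBO. The 10 genes themselves lay at 0.116 (Ifit1) to 0.609 (Ifit2) log2 units from their own median. The likeness is over 5 libraries, 1 of which stands apart, so many genes can share it.

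Summed markers of several cell types followed the order of libraries seen in the 10 genes. The summed level of the 10 genes was 97.8, 340 and 142 CPM with vehicle and 235 and 791 CPM with UMBO. The 12 markers of monocytes and macrophages summed to 73.0, 165 and 103 CPM with vehicle and to 145 and 516 CPM with UMBO, in the same order of libraries (1 of the 12, Ms4a4c, is also among the further interferon-stimulated genes). The 6 NK cell markers, at 1.23 to 6.94 CPM with vehicle and 3.92 and 31.5 CPM with UMBO, and the 8 neutrophil markers, at 0.615 to 2.00 CPM with vehicle and 1.21 and 6.60 CPM with UMBO, followed that order too. The order is that of the sums, and single genes carry much of them, such as Lyz2 for macrophages and Gzma, with 1686 reads in UMBO replicate 2, for NK cells. Gene by gene it was found in 8 of 12 markers of monocytes and macrophages, in 4 of 6 of NK cells and in 1 of the 4 neutrophil markers tested, against 8.26% of all genes. All markers of these 3 lists had reads, but only 4 of the 8 neutrophil markers were high enough to test, and Ly6g, a defining neutrophil marker, held 0 to 3 reads. Without UMBO replicate 2 the mean was higher with UMBO for 6 of the 12 monocyte and macrophage markers, against 12 of 12 with all libraries.

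Other lists did not keep the order. Proliferation markers summed to 37.1 to 115 CPM with vehicle and to 120 and 499 CPM with UMBO, with UMBO replicate 1 above vehicle replicate 2, and 10 of 10 had an unadjusted p under 0.05 in edgeR (0 at the adjusted threshold), or 1 of 10 without UMBO replicate 2. Over all genes the shares were 7.37% and 1.86%. Microglia markers summed to 656 to 1035 CPM with vehicle and to 1385 and 1535 CPM with UMBO, and endothelial markers to 119 to 183 CPM with vehicle and to 212 and 284 CPM with UMBO. Of the microglia markers 6 of 10 had an unadjusted p under 0.05 in edgeR (4 of 10 without UMBO replicate 2), and for 8 of 10 both UMBO libraries exceeded all 3 vehicle libraries. Of the endothelial markers 4 of 6 had such a p, and 0 of either list passed the adjusted threshold. Both UMBO libraries exceeded all 3 vehicle libraries for 11.5% of all genes. T cell markers summed to 19.8 to 33.1 CPM with vehicle and to 12.6 and 45.9 CPM with UMBO, B cell markers to 1.30 to 3.15 and to 2.23 and 4.98 CPM, and conventional dendritic cell markers to 26.7 to 33.8 and to 30.4 and 43.3 CPM. In every library but UMBO replicate 2, Cd4 held the most reads of the T cell markers (390 to 1090). In UMBO replicate 2 Lck held 798 reads and Cd4 544. Of the conventional dendritic cell markers Flt3 and Zbtb46 held the most reads in vehicle replicates 1 and 3 and UMBO replicate 1. Itgax held the most in vehicle replicate 2 (892 reads) and UMBO replicate 2 (1851, against 415 for Flt3 and 411 for Zbtb46). Gene by gene 6 of 7 T cell markers and 4 of 6 dendritic cell markers had higher means with UMBO. Against the mean of the vehicle libraries, the median log2 CPM of the T cell markers was -1.02, 0.77 and 0.05 in vehicle replicates 1 to 3. It was -0.54 in UMBO replicate 1 and 1.73 in UMBO replicate 2. Plasmacytoid dendritic cells are known for making much type I interferon. Their 8 markers summed to 761 to 971 CPM with vehicle and to 830 and 902 CPM with UMBO. That sum is carried by Tcf4 and Pacsin1, with at least 12640 reads each in every library, and in UMBO replicate 2 also by Bst2, with 16283. Of the 8 markers 7 had higher means with UMBO. Their median log2 CPM was 0.12, 0.22 and -0.47 in vehicle replicates 1 to 3, -0.26 in UMBO replicate 1 and 1.21 in UMBO replicate 2. Bst2, 1 of the 8, is itself among the further interferon-stimulated genes. Neuronal markers were lowest in UMBO replicate 2, at 2435 CPM against 4891 to 7614 CPM in the other libraries. Astrocyte markers summed to 3224 to 4490 CPM with vehicle and to 5085 and 3067 CPM with UMBO. Slc1a2 held the most reads of them in every library but UMBO replicate 2, where Gfap did. Gfap held 16019, 34724 and 32819 reads with vehicle and 119338 and 107131 with UMBO. Of the 6 astrocyte markers 3 had higher and 3 lower means with UMBO. Oligodendrocyte markers summed to 5746 to 5893 and to 6127 and 5270 CPM, and choroid plexus markers to 794 to 823 and to 842 and 490 CPM. The part of these cell types in the levels of the 10 genes was not tested.

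**Figure D5:**
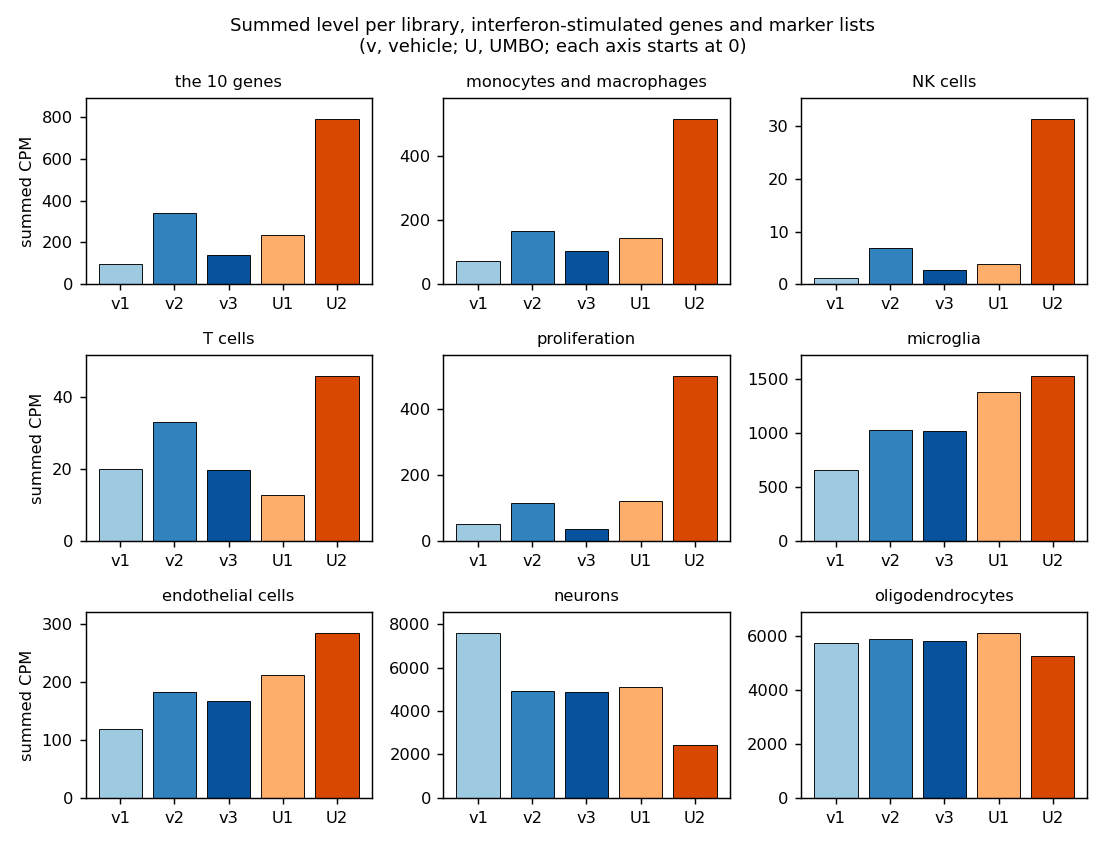
Summed CPM per library of the 10 genes and of 8 marker lists (vehicle replicates 1 to 3, v1 to v3; UMBO replicates 1 and 2, U1 and U2), each axis starting at 0. UMBO replicate 2 has the highest sum for the 10 genes (791 CPM), monocytes and macrophages (516 CPM) and proliferation (499 CPM), and the lowest for neurons (2435 CPM).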

How the data were processed

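RNA from the right hemisphere was sequenced in 5 mice, 3 vehicle and 2 UMBO, grouped by the labels. A further UMBO mouse described by the study was not analysed here. The authors mapped the reads to GRCm38 with STAR 2.7.2a and deposited raw counts per Ensembl gene, 1 table per library; the annotation release and the strand setting are not given in the sources used here. Symbols and positions came from GENCODE M21 (55480 of 55573 genes). Counts were filtered with filterByExpr, normalized by TMM and tested with edgeR 4.0.16 (R 4.3.3; quasi-likelihood, Benjamini-Hochberg, threshold 0.05); log2 CPM used a prior count of 2. DESeq2 1.42.0, other scalings and filters, the replicate block and each library left out were alternatives. P-values measure the spread between these mice.

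The members and lists were chosen with earlier results of these data known. Named were the members, the 3 genes of smallest p per list and the 8 closest genes. Added after their values were seen were Ifnar1, Jak1, Ifit3b, Trex1, Ifnb1, Ifnl2, Ifnl3, Adar, Ifit1bl1, Ido1, Irf3, Mavs, Tlr3, Ticam1, Ms4a4c, Ly6g, Lyz2, Gzma, Cd4, Lck, Flt3, Zbtb46, Itgax, Tcf4, Pacsin1 and Bst2. A gene of the signal transducer list is not reported here. The test was tried on simulated counts.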

Additional observations from a re-analysis of the deposited data

How the results depend on the processing

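All 10 genes stayed higher with UMBO in every alternative run. Genes with an adjusted p under 0.05 numbered 0 in edgeR and under the other scalings and filters, 42 with DESeq2, and 0 to 4543 with 1 library left out (4543 without UMBO replicate 1). Of the 10 genes 1 had an unadjusted p under 0.05 in edgeR, where 7.37% of all genes tested did. The number was 8 with DESeq2 (11.2% of all genes) and 9 with no filter on low counts (10.1% of 40435 genes tested). With 1 vehicle library left out it was 0 to 10, where 1.28% to 11.6% of all genes had such a p. Why the filter moved this number was not tested. The number of the 10 in which the UMBO libraries exceeded all vehicle libraries was 0, and 0 to 10 with 1 library left out. Their median log2 fold change lay between 0.34 and 2.27 with 1 library left out. With scaling by library size alone, the median of all genes went from 0.01 to 0.13 and that of the 10 genes from 1.55 to 1.67.

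With the replicate number as a block 2337 genes passed in edgeR (9.91% of those tested), among them 9 of the 10. Ifit2 did not pass (adjusted p = 0.0844 in edgeR). All 10 had an unadjusted p under 0.05, where 26% of genes did, and their median log2 fold change was 1.33. No label ties a number to a litter or a day. The deviations of same-numbered libraries had correlations of 0.453 and 0.760, but a group of 2 libraries deviates in mirror image by construction. Whether same-numbered samples share more than a number therefore cannot be told from these correlations.

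Other named genes changed sign in a few fits. With 1 library left out the log2 fold change ran from -0.49 to 1.25 for Ifng, from -0.016 to 1.51 for Herc6, from -0.27 to 3.20 for Socs1 and from -0.037 to 2.37 for Irgm1, the lowest value being without UMBO replicate 2. It ran from -0.16 to 0.059 for Ifnar1 (0.0051 without vehicle replicate 3), from -0.21 to 0.077 for Ifit1bl1 (highest without vehicle replicate 1) and from -1.39 to 0.056 for Ido1 (highest without UMBO replicate 1). With library size only it was 0.078 for Ifnar1 and 0.0022 for Ifit1bl1, and for Ifnar1 it was 0.0021 with the stricter filter (at least 1 CPM in 2 libraries) and 0.0049 with the replicate block.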
